A study of Drosophila melanogaster with 4 samples.

Results

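Drosophila eggs are patterned by mRNAs that are carried to one end of the oocyte and translated there, and this section follows the mRNA levels of 10 genes of that process in ovaries with *bam* RNAi in the germline, with and without *aramis* RNAi. The 10 genes were named in advance by symbol, found by their FlyBase identifiers among the 17023 genes counted in each library, and put in groups by their known roles. *orb*, *BicD*, *egl* and *cup* act in the early germline, when 1 cell of each cyst becomes the oocyte. *osk*, *bcd* and *grk* are mRNAs of growing egg chambers, and *stau*, *exu* and *swa* encode factors that localize such mRNAs. Their levels in earlier analyses of these libraries were known when the genes were chosen.

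In a wild-type ovary, nurse cells make mRNAs and pass them to the oocyte through ring canals. The BicD and Egl proteins join these mRNAs to the dynein motor for the journey, and the RNA-binding protein Orb is needed to specify the oocyte and to translate its localized mRNAs. Cup keeps *osk* mRNA silent until it reaches the posterior pole, where Oskar protein builds the pole plasm that founds the next germline. *bcd* mRNA is anchored at the anterior pole and encodes the morphogen for head and thorax, and *grk* encodes a ligand through which the oocyte signals to the Egfr of the surrounding follicle cells. Staufen, Exuperantia and Swallow take part in placing *bcd* mRNA, and Staufen also in placing *osk* mRNA.

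Poly(A) RNA of whole ovaries was sequenced in 4 libraries, 2 of UAS-Dicer2;NosGAL4 > *bam* RNAi and 2 of UAS-Dicer2;NosGAL4 > *bam* RNAi; *aramis* RNAi. All 4 therefore carried Dicer2, the germline driver NosGAL4 and the *bam* RNAi construct, and the genotypes differed by *aramis* RNAi. Bam drives the step from cystoblast (CB) to cyst, and germline cells without it are known not to form cysts or oocytes, and *aramis* (symbol *ais*) encodes an RNA helicase. The females were dissected 1 to 3 days after eclosion, having been fed yeast, and the series uses *bam* RNAi as the developmental control. The driver acts in the germline, whereas the RNA came from germline and soma together. A library free of *bam* RNAi was not analysed here, and nothing in the labels says how many animals made up a library or whether the 2 replicates were raised apart, so that p-values measure the spread between these libraries, which may be technical.

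Total counts lay between 11882367 and 13348602, so that a floor of 3 counts stood for 0.225 to 0.252 CPM (counts scaled by library total). Intervals and floors cover counting error only. *ais* had 454 and 507 counts with *bam* RNAi and 149 and 161 counts with *aramis* RNAi added, a log2 fold change of -1.37 (edgeR adjusted p = 3.3e-04). *bam* had 35 and 25 counts against 16 and 17 (log2 fold change -0.61, standard error (SE) 0.416, edgeR adjusted p = 0.262). All 18 listed germline markers and all 15 listed somatic ovary markers were above 0 counts in total. So were 13308 of the 17023 genes, so this is no test of the ovary label. Among all tested genes, 25.0% fell and 25.4% rose with *aramis* RNAi at an edgeR adjusted p under 0.05. The germline markers fell in 17 of 18 cases, with *tud* rising. Their summed level was 1876 and 1799 TPM (counts divided by exon length and scaled to a common sum) with *bam* RNAi and 911 and 775 TPM with *aramis* RNAi added. Of the somatic markers 8 rose, 2 fell (*tj* at -1.08 and *upd1* at -1.90) and 5 did not pass, and their summed level was 1093 and 973 TPM against 1401 and 1226 TPM. Eggshell markers, which belong to later egg chambers, summed to 16316 and 57875 TPM with *bam* RNAi. *Vm26Aa* (4339 and 16512 TPM), *Vm26Ab* (5248 and 13908 TPM) and *Vm34Ca* (5019 and 19726 TPM) made up most of this sum. The chorion genes *Cp36* (2.67 and 6.28 TPM) and *Cp38* (2.70 and 5.34 TPM) were low in the same libraries. Which stages the ovaries held was not tested. In whole ovaries, fewer germline cells and less RNA per germline cell cannot be told apart. Nor can a shift in the share of cell types be told from a change within cells, for any change below.

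Of the 10 genes, 9 had counts enough for a test, and 6 of these 9 had an adjusted p under 0.05 by edgeR (quasi-likelihood F test, Benjamini-Hochberg method, 9115 genes). *bcd*, *swa*, *osk* and *orb* fell with *aramis* RNAi, *grk* and *egl* rose, and *BicD*, *stau* and *exu* did not pass. The fall of *osk* is that of a gene which passed the filter on low counts through the *bam* RNAi libraries alone. The share of all tested genes that passed was 50.4%, so the count of 6 by itself sets the genes apart from nothing. Rises made up 25.4% of all tested genes and falls 25.0%. The median log2 fold change of the 9 genes was -0.27, beside -0.02 over all tested genes. The normalized levels of the genotypes did not overlap for 8 of the 9 genes, against 77.1% of all tested genes. The split of 2 rises and 4 falls depended on the scaling. With libraries scaled to equal germline markers, 4 of the 9 genes (*grk*, *egl*, *stau* and *BicD*) stood as higher and 1 (*bcd*) as lower, beside 87.1% and 1.68% of all tested genes.

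**Figure D1:**
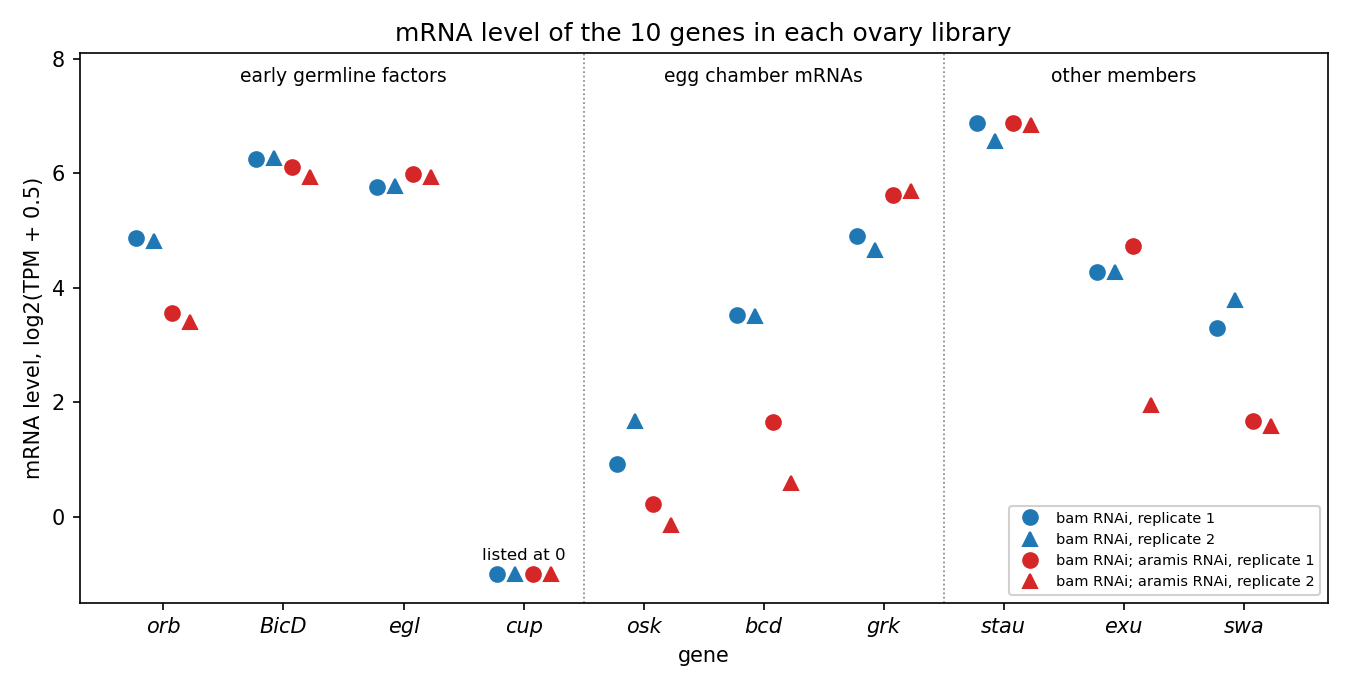
mRNA level of each gene in the 4 libraries, as log2(TPM + 0.5), with *bam* RNAi in blue and *bam* RNAi; *aramis* RNAi in red, replicate 1 as circles and replicate 2 as triangles. *orb*, *osk*, *bcd* and *swa* are lower in both red libraries, *grk* is higher in both, *exu* is apart in 1 red library, and *cup* is listed at 0 in all 4.

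In >*bam* RNAi ovaries the genes covered a wide range of levels. *stau* was highest at 105 ± 16.1 TPM (SD, n = 2), followed by *BicD* at 76.1 ± 0.620, *egl* at 54.0 ± 0.395, *orb* at 28.2 ± 0.869 and *grk* at 27.1 ± 3.29 TPM. *exu* was at 18.8 ± 0.0358, *swa* at 11.3 ± 2.86, *bcd* at 10.9 ± 0.0645 and *osk* at 2.03 ± 0.919 TPM (SD, n = 2). The replicates of *orb* and *grk* overlapped, as did those of *swa* and *bcd*, so these neighbours had no fixed order. With *aramis* RNAi added, *stau* was still highest at 116 ± 2.69 TPM and *osk* lowest of the 9 at 0.533 ± 0.179 TPM (SD, n = 2). There the replicates of *BicD* and *egl* overlapped, and *grk*, at 49.9 ± 1.68 TPM, lay clear above *orb*, at 10.7 ± 0.929 TPM (SD, n = 2).

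*cup* (FBgn0000392, chromosome arm 2L from 6663664 to 6674780, plus strand, dm6 coordinates) had 0 counts in each of the 4 libraries. This 0 cannot be read as a lack of *cup* mRNA. All 4306 bases of its exons lie within exons of CG34310, a gene annotated on the same strand, and reads that fall in both genes have no single owner. CG34310, which has 265 exon bases of its own on that strand, had 39 and 75 counts with *bam* RNAi and 37 and 41 with *aramis* RNAi added. Among protein-coding genes, 291 shared every exon base with another gene on their strand, and 268 of them (92.1%) had 0 counts in all libraries, against 16.1% of the 8991 genes that share none. Of 70 protein-coding genes whose exon bases all lay opposite a gene on the other strand, 57 (81.4%) also had 0 counts, although the library kit keeps strand. *cup* was therefore left without a level or a fold change.

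The same annotation bears on 3 other members. *osk* shares 78.5% of its exon bases with lncRNA:osk, which runs along it on the same strand. Unlike CG34310, lncRNA:osk was not found among the 17023 genes counted under its identifier in the annotation used here. However, 376 counted identifiers had no match in that annotation. Whether *osk* had a counted partner on its strand, and lost shared reads to it, is therefore not known. The level of *osk* per length remains uncertain, since reads of lncRNA:osk could not be told apart from its own. *grk* lies opposite *Akap200* over 212 of 1718 exon bases, and *exu* lies opposite *galla-1* over 397 of 3290. *Akap200*, with between 14519 and 15506 counts, had a log2 fold change of 0.29 (SE 0.0998, adjusted p = 0.0502), and *galla-1* one of -0.18 (SE 0.120, adjusted p = 0.246). The exons of *bcd*, *orb*, *BicD*, *egl*, *stau* and *swa* overlap no other annotated gene.

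The early germline factors moved apart from each other. *orb* (FBgn0004882, chromosome arm 3R from 23260610 to 23280856, minus strand), which encodes the CPEB protein of the oocyte, had 1388 and 1541 counts with *bam* RNAi and 514 and 492 with *aramis* RNAi added. Its level was 28.8 and 27.6 TPM in the first genotype and 11.3 and 10.01 TPM in the second, with the genotypes well apart and the replicates close. The log2 fold change was -1.28 (SE 0.0822, edgeR adjusted p = 2.5e-04), a 2.43-fold lower level, and the call held without each library in turn, with fold changes from -1.30 to -1.24. When libraries were scaled to equal germline markers in place of TMM normalization, *orb* was at 0.079 (adjusted p = 0.417), since its fall was close to the median of these markers, -1.36.

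*BicD* (FBgn0000183, chromosome arm 2L from 17459605 to 17473215, minus strand), the dynein adaptor, had 2097 and 2460 counts with *bam* RNAi and 1790 and 1708 with *aramis* RNAi added. These are 75.6 and 76.5 TPM against 68.5 and 60.4 TPM, a log2 fold change of -0.12 (SE 0.0746, adjusted p = 0.222) that did not pass. Scaled to germline markers, *BicD* was at 1.241 (edgeR adjusted p = 2.9e-06), but under this scaling 87.1% of all tested genes stood as higher. *egl* (FBgn0000562, chromosome arm 2R from 23734904 to 23746829, minus strand), which binds the mRNA cargo of BicD, had 1223 and 1433 counts against 1352 and 1409. Its level rose slightly, from 53.7 and 54.3 TPM to 63.0 and 60.6 TPM, with a log2 fold change of 0.32 (SE 0.0756, adjusted p = 0.0129). With a library left out the value stayed between 0.27 and 0.36. The adjusted p was 0.112 and 0.0735 without *bam* RNAi replicate 1 and 2, and 0.0328 and 0.0585 without *aramis* RNAi replicate 1 and 2, so that the call held in 1 of these 4 cases. Scaled to germline markers, *egl* was at 1.68 (adjusted p = 1.3e-06). BicD and Egl act as a complex, and their mRNAs stood at a ratio of 1.41 and 1.41 in TPM with *bam* RNAi and 1.09 and 0.995 with *aramis* RNAi added.

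The egg chamber mRNAs did not move as a group either. *bcd* (FBgn0000166, chromosome arm 3R from 6755842 to 6759466, minus strand) had 140 and 161 counts with *bam* RNAi and 32 and 13 with *aramis* RNAi added. Its level fell from 10.9 and 10.9 TPM to 2.65 and 0.996 TPM, and the lower genotype was also the less even one. The log2 fold change was -2.48 (SE 0.369, adjusted p = 0.0020), the largest fall among the 9 tested genes, and 98.0% of all tested genes had a smaller change in size. Without *bam* RNAi replicate 1 or 2 the adjusted p was 0.0760 or 0.0801 at log2 fold changes of -2.51 and -2.44. Without *aramis* RNAi replicate 1 the value was -3.25, and without replicate 2 it was -1.96.

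*osk* (FBgn0003015, chromosome arm 3R from 8935126 to 8938395, plus strand) had 20 and 45 counts with *bam* RNAi and 9 and 6 with *aramis* RNAi added. Its level of 1.38 and 2.68 TPM with *bam* RNAi was higher than that of 46.3% and 50.8% of genes with a length. With *aramis* RNAi added it was 0.660 and 0.406 TPM. The genotypes did not overlap, but exact Poisson 95% intervals of single libraries did, reaching from 12.2 to 30.9 counts in the lower *bam* RNAi library and from 4.12 to 17.1 counts in the higher *aramis* RNAi library. The log2 fold change was -1.82 (SE 0.551, adjusted p = 0.0313). *osk* passed the filter on low counts through the *bam* RNAi libraries alone. Its call was lost in DESeq2 (adjusted p = 0.0742) and without any 1 of the 4 libraries, where the adjusted p ran from 0.0623 to 0.173 and the fold change from -2.24 to -1.22.

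*grk* (FBgn0001137, chromosome arm 2L from 8431086 to 8433598, minus strand), the ligand of Egfr, went the other way. It had 255 and 249 counts with *bam* RNAi and 398 and 452 with *aramis* RNAi added, or 29.4 and 24.8 TPM against 48.7 and 51.1 TPM. Both *aramis* RNAi libraries lay above both *bam* RNAi libraries, with a log2 fold change of 1.01 (SE 0.123, adjusted p = 9.8e-04), a 2.01-fold higher level. The value ran from 0.92 to 1.11 with a library left out, and the adjusted p was 0.0525 without *bam* RNAi replicate 2. *grk* thus rose while 17 of 18 germline markers fell, and scaling to those markers gave it a log2 fold change of 2.37. Whether the overlap of its 3′ end region with *Akap200* had a part in this was not tested.

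**Figure D2:**
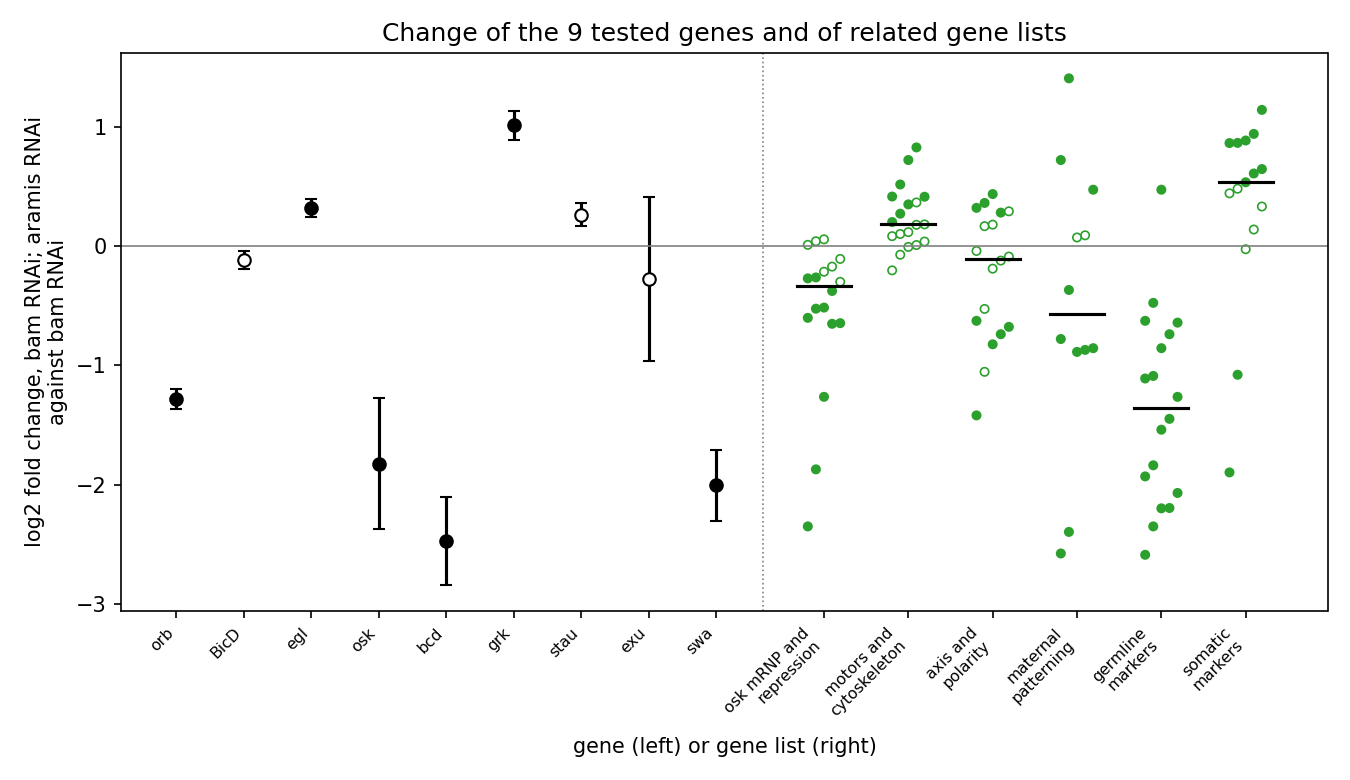
Log2 fold change upon addition of *aramis* RNAi, with black points and standard errors for the 9 tested genes and green points for the members of 6 related gene lists, where black lines are list medians. Filled points had an adjusted p under 0.05. *grk* lies at 1.01, *osk* and *bcd* lie at -1.82 and -2.48, and the germline markers have a median of -1.36.

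The early factors were compared with the egg chamber mRNAs inside each library, as levels per length. Leaving out *cup*, every pairing of *orb*, *BicD* or *egl* with *osk*, *bcd* or *grk* had the early factor higher in *bam* RNAi replicate 2 (9 of 9), and 8 of 9 pairings did so in the other 3 libraries. In each of those the exception was *orb* below *grk*, at 28.8 against 29.4 TPM, 11.3 against 48.7 TPM and 10.01 against 51.1 TPM. The median of the measured early factors was 53.7 and 54.3 TPM with *bam* RNAi and 63.0 and 60.4 TPM with *aramis* RNAi added. The median of the egg chamber mRNAs, which in every library was the level of *bcd*, was 10.9 and 10.9 TPM against 2.65 and 0.996 TPM.

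Taken as the difference of mean log2(TPM + 0.5) between the groups, the early factors other than *cup* exceeded the egg chamber mRNAs by 2.52 and 2.34 with *bam* RNAi and by 2.72 and 3.04 with *aramis* RNAi added. With *cup* kept in at 0 the differences were 0.86 and 0.69 against 1.17 and 1.52. The *aramis* RNAi libraries lay above the *bam* RNAi libraries in both forms, by 0.45 without *cup* and 0.57 with it. This gap rested on single genes. Without *bcd* it turned to -0.28 (-0.16 with *cup* kept in), and without *grk* it grew to 1.35 (1.47 with *cup*). The 2 groups of genes are therefore not separated by how they moved. Each group held genes that fell (*orb*; *osk* and *bcd*) and a gene that rose (*egl*; *grk*). No test was made of these differences, because the groups were chosen with results known and an exact permutation of 2 against 2 libraries cannot give a two-sided p below 0.333.

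**Figure D3:**
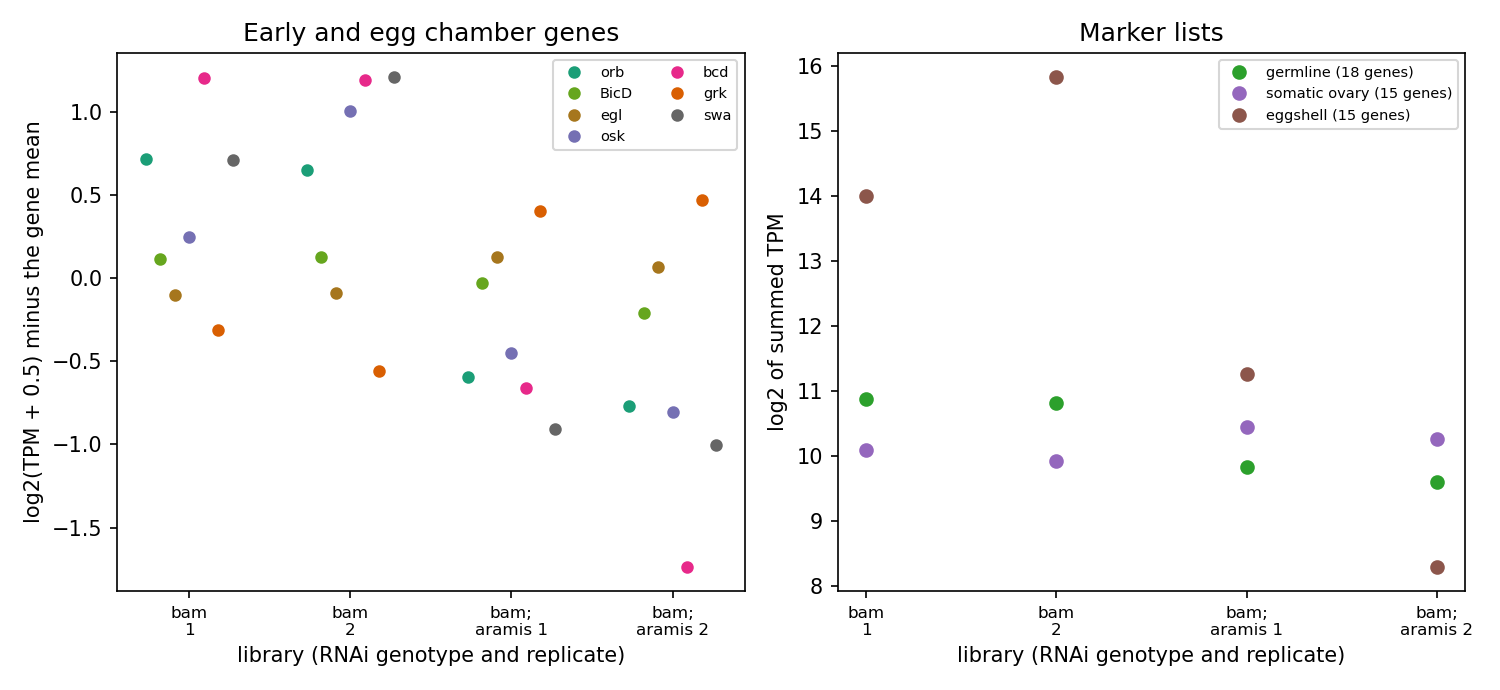
Left, level of 7 genes in each library as log2(TPM + 0.5) minus the mean of the gene over the 4 libraries. Right, log2 of the summed TPM of the germline, somatic ovary and eggshell marker lists in the same libraries, where the eggshell sum runs from 316 to 57875 TPM.

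Among the localization factors, *swa* fell and *stau* held a high level. *swa* (FBgn0003655, X chromosome from 6363418 to 6365708, minus strand), known for its part in *bcd* localization, had 95 and 158 counts with *bam* RNAi and 26 and 26 with *aramis* RNAi added. Its level fell from 9.32 and 13.4 TPM to 2.70 and 2.50 TPM, with no overlap between genotypes and a log2 fold change of -2.01 (SE 0.294, adjusted p = 0.0019). Without *bam* RNAi replicate 2 it was -1.68 (adjusted p = 0.0521). Scaled to germline markers, *swa* was at -0.65 (adjusted p = 0.0782) and *bcd*, the other deep fall, at -1.12 (adjusted p = 0.0229).

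*stau* (FBgn0003520, chromosome arm 2R from 18117896 to 18125779, minus strand), a binder of double-stranded RNA, had 3156 and 2946 counts with *bam* RNAi and 2997 and 3140 with *aramis* RNAi added. Its level was 117 and 93.8 TPM in the first genotype and 117 and 114 TPM in the second, above 88.8% to 91.5% of genes with a length. The log2 fold change of 0.26 (SE 0.0975, adjusted p = 0.0618) did not pass in edgeR, whereas DESeq2 gave 0.28 (adjusted p = 0.0408). Scaling to germline markers gave 1.62 (edgeR adjusted p = 3.4e-06), but under it 87.1% of all tested genes stood as higher.

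*exu* (FBgn0000615, chromosome arm 2R from 20667427 to 20671083, minus strand), needed for *bcd* localization, was even with *bam* RNAi, at 313 and 362 counts or 18.9 and 18.8 TPM. With *aramis* RNAi added, replicate 1 had 409 counts (26.2 TPM) and replicate 2 had 57 (3.37 TPM). These libraries lay on either side of the *bam* RNAi pair, and the log2 fold change of -0.27 had an SE of 0.687 (adjusted p = 0.768). Its sign and its call hung on 1 library. Without *aramis* RNAi replicate 1 it was -2.29 (adjusted p = 0.0014), and without replicate 2 it was 0.55 (adjusted p = 0.0260). The CPM ratio of replicate 1 to replicate 2 was 7.51 (exact binomial 95% interval 5.68 to 10.1), and 99.8% of tested genes differed less between these replicates. *galla-1*, which lies opposite part of *exu*, had 295 and 331 counts in the same libraries.

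**Figure D4:**
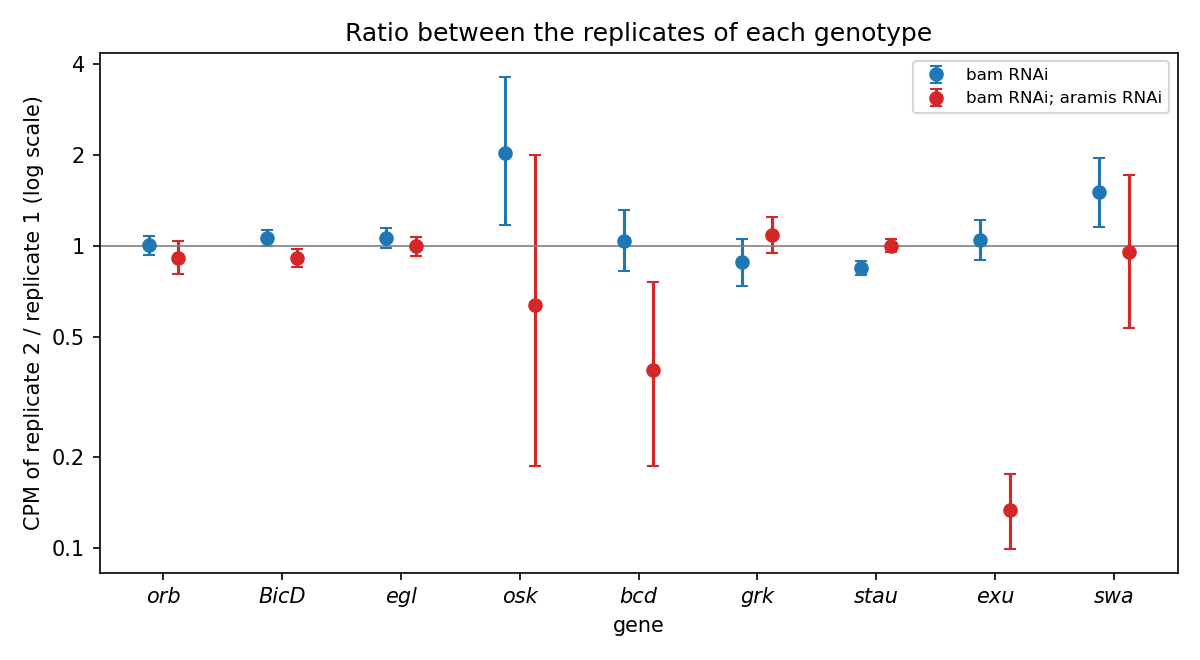
CPM of replicate 2 divided by that of replicate 1, on a log scale, for the 9 tested genes in *bam* RNAi (blue) and *bam* RNAi; *aramis* RNAi (red). Bars are exact binomial 95% intervals, which cover counting error only. *exu* in *aramis* RNAi libraries stands at 0.133, and *osk* and *swa* in *bam* RNAi libraries at 2.04 and 1.504.

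The replicates of >*bam* RNAi differed most for *osk* and *swa*. Replicate 2 had 2.04 times the CPM of replicate 1 for *osk* (exact binomial 95% interval 1.18 to 3.64) and 1.504 times for *swa* (1.16 to 1.96), whereas *bcd* stood at 1.04 (0.824 to 1.31), *orb* at 1.00 (0.933 to 1.08) and *grk* at 0.883 (0.739 to 1.06). *stau* was at 0.844 (0.803 to 0.888) and *BicD* at 1.06 (1.00 to 1.13). With *aramis* RNAi added, *bcd* was uneven in the opposite sense, with replicate 2 at 0.388 times replicate 1 (0.187 to 0.760). These intervals compare the libraries, not conditions.

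Eggshell genes, which are made by follicle cells around later egg chambers, varied between the same libraries. The 15 eggshell markers summed to 16316 and 57875 TPM with *bam* RNAi and to 2455 and 316 TPM with *aramis* RNAi added, and none had 0 counts in total. Of these, 11 fell with *aramis* RNAi, 1 (*yellow-g*) rose and 3 did not pass, beside 25.0% of all tested genes that fell and 25.4% that rose. *Vm32E* was lowest at -7.89 (SE 1.38, edgeR adjusted p = 0.0039). *Vm32E*, *Cp36* and *Cp38* passed the filter on low counts through the *bam* RNAi libraries alone. *osk* and *swa* were highest in the library with most eggshell mRNA. *bcd* and *exu* were lowest in the library with least, as were *orb* and *BicD* by smaller margins. Between the *aramis* RNAi libraries *osk* (9 and 6 counts) and *swa* (26 and 26 counts) did not differ beyond counting error. *grk* had its highest level in the library with least eggshell mRNA and its lowest in the library with most. Within each genotype, however, its replicates did not differ beyond counting error. The part of egg chambers in the values of these genes was not tested.

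Other genes of the process were counted from fixed lists, and each count is to be read beside the 25.4% of all tested genes that rose and the 25.0% that fell. Of 18 tested genes on a list of *osk* mRNP and translational repression factors, which also holds *nanos*, *pum* and general factors such as *eIF4E1*, none rose, 11 fell and 7 did not pass, with a median log2 fold change of -0.34. The deepest falls were those of *otu*, needed for oocyte formation, at -2.35 (SE 0.0976, adjusted p = 1.2e-04) and *bru1*, the Bruno repressor of *osk* translation, at -1.87 (SE 0.0778, adjusted p = 1.2e-04). *otu* and *nanos* (-1.26), both among the falls, are also germline markers. *bru1* was at 61.2 and 59.8 TPM with *bam* RNAi and at 16.3 and 14.1 TPM with *aramis* RNAi added. *Imp* from this list was not analysed here.

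Of 19 genes for motors and cytoskeleton of oocyte transport, 8 rose, none fell and 11 did not pass, with a median of 0.18. The difference between this list and the preceding one was not tested. *capu*, a formin that nucleates actin, rose by 0.83 (SE 0.0854, adjusted p = 5.8e-04), from 31.7 and 26.7 TPM to 49.9 and 45.1 TPM. *Tm1*, a tropomyosin gene with a product that acts with kinesin in *osk* transport, rose by 0.72 (SE 0.145, adjusted p = 0.0067). *Tm1* is also expressed in muscle. Beside 25.4% of all tested genes, 6 of the 6 tested muscle sheath markers rose, from 0.90 for *Mef2* to 1.04 for *Mlc2*. They come from a list that also holds yolk genes, of which 2 fell and 1 did not pass. The deepest of these falls was that of *Yp2* at -1.93. The part of muscle sheath in the change of *Tm1* was not tested.

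Among 18 axis and cortical polarity genes, 4 rose, 5 fell and 9 did not pass, shares near the 25.4% and 25.0% of all tested genes, with a median of -0.11. The rises were led by *14-3-3zeta* at 0.44 (adjusted p = 0.0185) and the kinase gene *par-1* at 0.36 (adjusted p = 0.0141). The falls were led by *mael* at -1.42 (adjusted p = 2.5e-04), which acts in the piRNA pathway, and *okr* at -0.82 (adjusted p = 0.0018), which acts in DNA repair. *del* and *spn-E*, also among the falls, act in the piRNA pathway too and stand among the germline markers, and the remaining fall was that of the kinase gene *Lkb1* at -0.68 (adjusted p = 0.0036).

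Of 12 tested maternal patterning and pole plasm mRNAs, 3 rose, 7 fell and 2 did not pass, against 25.4% and 25.0% of all tested genes, with a median of -0.57. Among the rises, *Tm1* was already counted with the transport genes and *tud* is a germline marker. *cad*, a posterior patterning gene, fell by 2.58 on the log2 scale (SE 0.346, adjusted p = 0.0014), from 61 and 69 counts to 9 and 9, and like *osk* passed the filter on low counts through the *bam* RNAi libraries alone. *tor*, the receptor of the terminal system, fell by 2.40 (SE 0.241, adjusted p = 5.4e-04). *hb*, whose maternal mRNA is held silent at the posterior, rose by 1.405 (SE 0.198, adjusted p = 0.0016), from 14.3 and 8.78 TPM to 27.7 and 28.0 TPM. *tll* had 0 counts in every library, and *pgc* was too low to be tested, at 1.47 and 0.423 TPM against 0.174 and 0 TPM.

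These directions hold for TMM normalization. Scaling to germline markers raised log2 fold changes by a median of 1.36, so that smaller falls changed sign, and 19 of the 19 transport genes and 15 of the 18 *osk* mRNP genes then stood as higher, beside 87.1% of all tested genes. Under it *bru1*, *cad*, *tor*, *bcd*, *osk* and *swa* remained lower by their values, at -0.51, -1.23, -1.04, -1.12, -0.48 and -0.65, of which *osk* and *swa* did not pass. *otu* stood at -0.99, but it is itself among the markers that set this scaling. A marker that fell more than their mean stays lower by construction.

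The genes nearest in profile were sought by the distance between log2 CPM values centred over the 4 libraries. *RecQ4*, *Marf1* and *dUTPase* were nearest to *orb*, at distances of 0.0370, 0.0379 and 0.0542, with log2 fold changes of -1.29, -1.25 and -1.29. *path*, CG7991 and *Cp38* were nearest to *osk*, at 0.210, 0.229 and 0.232. *Cp38* is a chorion gene and one of the eggshell markers, with 17 and 39 counts with *bam* RNAi and 6 and 5 with *aramis* RNAi added. With 4 libraries, 2 per genotype, this likeness is a description.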

How the data were processed

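The deposited files hold raw read counts per gene, 1 file for each of the 4 libraries. The submitters' processing notes name HISAT2 2.1.0, featureCounts 1.4.6 and DESeq2 1.24.0. The strand setting, the treatment of reads shared by overlapping genes and the annotation release are not given in the sources used here. Libraries were made with a directional poly(A) kit, with RNA fragmented for 13 min. Identifiers were matched to Ensembl release 115 of BDGP6 (16647 of 17023), which gave symbols, dm6 coordinates and exon lengths for TPM. The 376 unmatched identifiers stayed in library sizes and in tests.

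Genotypes were compared with edgeR 4.0.16 in R 4.3.3 (quasi-likelihood test, TMM normalization, filterByExpr with a minimum count of 10, no replicate block), with Benjamini-Hochberg adjustment over 9115 genes and a threshold of 0.05. Standard errors were taken from the F statistic. On simulated counts for 8993 genes in this comparison, 100% of 200 changed genes were recovered, with 7 false calls. In the libraries themselves, 4590 of 9115 genes passed. Recovery at counts as low as those of *osk*, or at a fold change as small as that of *egl*, was not tested. Recovery by size of change is not known either, so the figure does not cover the calls on *orb* and *grk*. Nor was recovery tested with a share of changed genes as large as the share that passed in the libraries. Replicates correlated at 0.986 and 0.987 in log2 CPM and differed by more than sampling noise (chi-square per degree of freedom 29.3 and 16.4).

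Alternatives were DESeq2 1.42.0, its size factors in edgeR, no filter, a replicate block, leaving out the 20 most abundant genes, scaling to germline markers and leaving out each library. The members and the lists were chosen with earlier results of these data known. All 10 members were named, with up to 2 rises and 2 falls of largest size per related list. Named too were the extremes of marker lists and the 3 genes nearest in profile to *orb* and to *osk*. Extremes not given above were *rhi*, the lowest germline marker at a log2 fold change of -2.59, and *zfh1*, the highest somatic marker at 1.14. *Lkb1*, *del*, *spn-E*, *Mef2*, *nanos*, *pum*, *eIF4E1*, *tj*, *Cp36*, *Vm26Aa*, *Vm26Ab* and *Vm34Ca* were named after their values were seen. Promoter motifs were not searched.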

Additional observations from a re-analysis of the deposited data

How the results depend on the processing

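The count of 4590 genes past the threshold became 3792 in DESeq2, of which 3713 were shared, and 8095 with scaling to germline markers, under which 7942 stood as higher and 153 as lower. With a library left out it ran from 1243 to 3715, and the number of members past the threshold ran from 1 to 6. The replicate numbers did not pair the libraries (correlation of same-numbered deviations 0.03), and a replicate block gave 4430 genes and 6 members. Scaling to germline markers turned *orb* to 0.079, *BicD* to 1.241 and *exu* to 1.08, and *exu* ran from -2.29 to 0.55 with a library left out. The causes were not tested.

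The early minus egg chamber gap between genotypes, 0.57 with *cup* kept in, became -0.16 without *bcd*, 1.47 without *grk*, 0.91 without *orb* and 0.80 with a pseudocount of 0.1 TPM. With *cup* left out as well, an alternative chosen after seeing the data, it was -0.28 without *bcd*, 1.35 without *grk* and 0.29 without *osk*. With a library left out it ran from 0.39 to 0.75. With 2 libraries per genotype the calls on *osk* and *egl* are the least firm, and 6 to 45 counts limit *osk* in every library.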
